A study of Mus musculus with 12 samples.

Results

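Forkhead factors are transcription factors named for the winged-helix domain with which they bind DNA, and a small set of them is tied to the lung epithelium. The set described here holds 7 of them: Foxa1, Foxa2, Foxa3, Foxp1, Foxp2, Foxp4 and Foxj1. A probe set was taken for a factor when the platform's annotation gave it that gene symbol and no other. This gave 7 probe sets for 7 genes, 1 each, among 41345 probe sets and 22180 named genes. RNA came from MLE12 cells, a mouse lung epithelial cell line that carries the large T antigen of SV40. At 60% confluency the cells were exposed for 12 hours to lentivirus made in HEK-293T cells and carrying a pLKO.1 short hairpin RNA (shRNA), then kept in culture for 65 hours. The 4 groups of 3 arrays were cells given shRNA against the long noncoding RNA NANCI, cells given the scrambled shRNA titled with it, cells given shRNA against LL34, and cells given the scrambled shRNA titled with LL34. All groups, the scrambled ones included, were infected with lentivirus. The labels call the replicates biological but do not say that they came from separate infections, so p-values here reflect only the spread from array to array, which may be technical.

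In the lung, FoxA proteins act as pioneer factors: they bind their sites in closed chromatin and open it for other factors, and Foxa1 and Foxa2 share control of branching and of surfactant and junction genes. FoxP proteins are mainly repressors that pair through a zinc finger and leucine zipper and recruit histone deacetylase complexes. Foxp1, Foxp2 and Foxp4 are known to shape the secretory and alveolar type 1 programs. Foxj1 is the master factor of motile cilia and is known from ciliated airway cells.

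Each array gave log2 signals, and array medians lay at 6.84 to 6.88 in the 6 arrays of the NANCI set, against 6.54 to 6.61 in the 6 of the LL34 set. Levels were therefore compared within a set. Replicates correlated at 0.986 to 0.997. The alveolar type 2 markers Sftpc and Sftpb and the keratins Krt8 and Krt19 had signals high on the arrays, but Epcam, Krt18 and Cldn7 lay near or below the median of all probe sets, and so did 5 to 6 of the 10 alveolar type 2 markers by group. The lung epithelial label thus held for some of its markers only. Leukocyte, endothelial and airway secretory markers were mostly below that median: 5 of 6, 4 to 5 of 5 and 5 to 6 of 7 by group. Mesenchymal and neuroendocrine markers were mostly not, with 2 to 3 of 8 and 1 of 3 below it by group. The mesenchymal marker Dcn lay at the 97.5 to 99.5 percentile. The arrays gave no exact zeros, so no marker was at 0. Sfta3-ps, whose listed synonym is Nanci, was at 13.3% of its scrambled level in cells given the NANCI shRNA (change -2.91, limma adjusted p = 1.72e-07). It was also lower with LL34 shRNA, at 62.6% of its scrambled level (change -0.67, limma adjusted p = 0.00284). The LL34 target was not analysed here, as no table used here names it.

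With NANCI shRNA, 5 of the 7 forkhead factors passed the test: Foxa1, Foxp1, Foxp2 and Foxp4 fell and Foxa2 rose. With LL34 shRNA, 4 of the 7 passed, and all 4 fell: Foxa1, Foxa2, Foxp1 and Foxp4. The deepest falls were of different factors, Foxp2 with NANCI shRNA and Foxa1 with LL34 shRNA. A call means a limma p below 0.05 after Benjamini-Hochberg adjustment over all 41345 probe sets, of which 19.9% were called in the NANCI comparison and 16.4% in the LL34 comparison. Among the 22180 named genes those shares were 26.8% and 20%. These shares are not matched for signal, and the 5 called factors had group means at the 66.3 to 94.6 percentile of all probe sets. With probe sets under the median signal left out, 8413 of 20673 were called with NANCI shRNA and 7209 with LL34 shRNA. The median change of the 7 was -0.26 with NANCI shRNA and -0.39 with LL34 shRNA, beside medians over all named genes of 0.0042 and -0.019. The 3 shRNA arrays lay wholly to 1 side of the 3 scrambled arrays for 5 of the 7 factors in each set, as they did for 33% of all probe sets in the NANCI set and 31% in the LL34 set. In a bulk sample, fewer cells expressing a gene and less RNA per cell cannot be told apart.

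**Figure D1:**
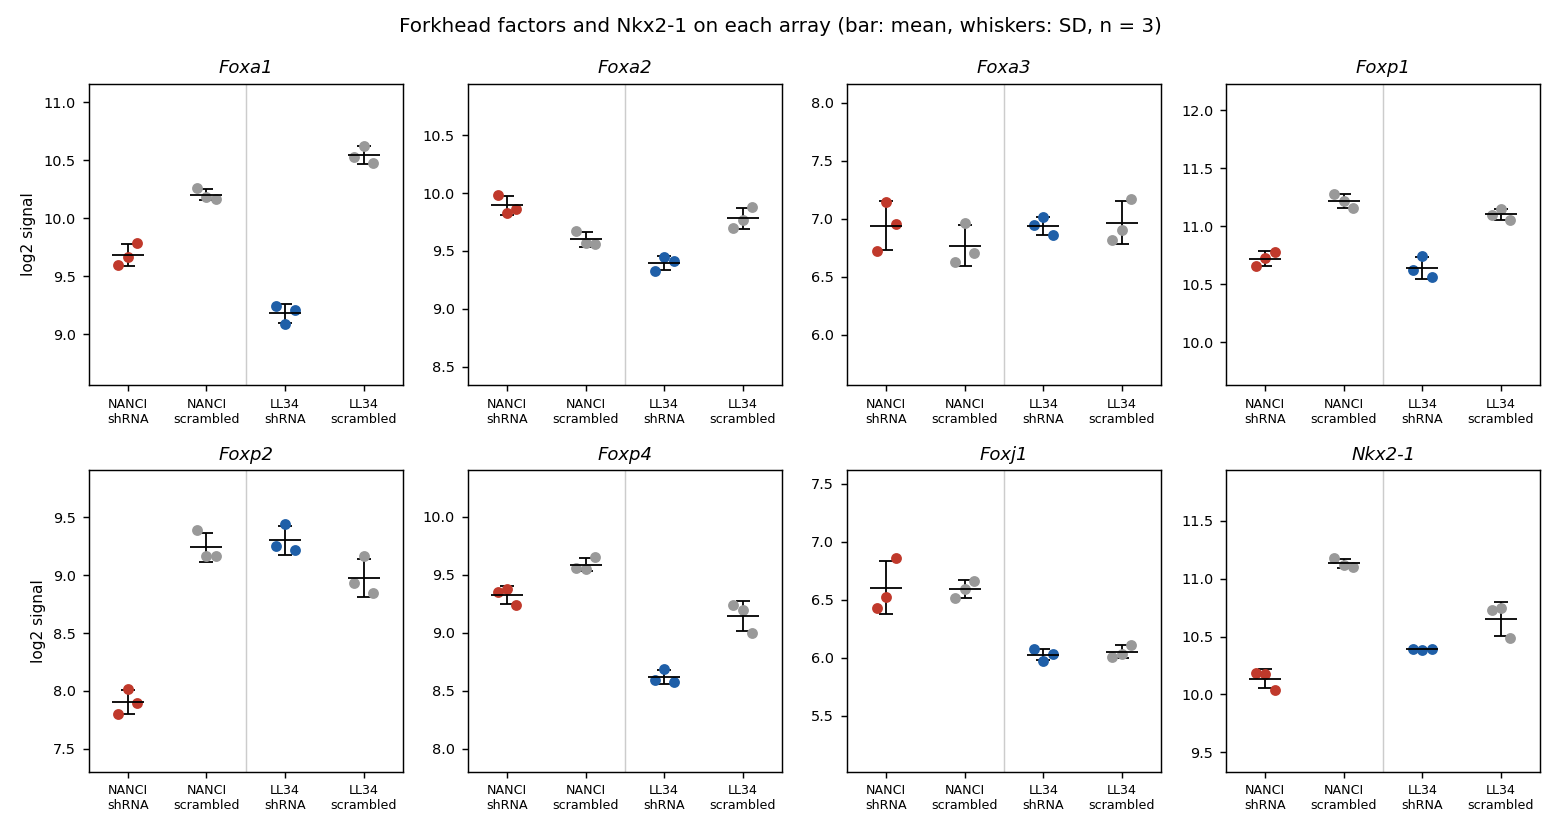
Log2 signal of each forkhead factor on every array (points) with the group mean (bar) and SD (whiskers, n = 3), for the shRNA and scrambled groups of each set. Foxa1 lies at 9.08 to 9.24 in cells given LL34 shRNA and at 10.48 to 10.63 in their scrambled group, and Foxp2 at 7.80 to 8.01 in cells given NANCI shRNA and at 9.16 to 9.38 in theirs; Nkx2-1 is drawn beside the 7 factors.

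Foxa1, a pioneer factor of the foregut endoderm, was lower after both shRNAs. With NANCI shRNA its log2 signals were 9.59, 9.66 and 9.78, against 10.26, 10.19 and 10.16 in the scrambled group (means 9.68 ± 0.0962 and 10.20 ± 0.0489, SD, n = 3 each). All 3 shRNA arrays lay below all 3 scrambled arrays, and the change was -0.52 (SE 0.0698, limma adjusted p = 0.000256), a level at 69.7% of scrambled. With LL34 shRNA the signals were 9.24, 9.08 and 9.21, against 10.53, 10.63 and 10.48 in its scrambled group (means 9.18 ± 0.0829 and 10.54 ± 0.0757, SD, n = 3 each). The groups were far apart here, with 1.24 between the lowest scrambled and the highest shRNA array. The change was -1.37 (SE 0.0698, limma adjusted p = 1.2e-06), a level at 38.8% of scrambled, and 0.493% of all probe sets changed by as much or more. Ordered from low to high, the groups were LL34 shRNA, NANCI shRNA, NANCI scrambled and LL34 scrambled, and no neighbours in that order overlapped, although levels of the sets carry their different scales.

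The Foxa1 promoter is shown because Foxa1 had the deepest fall of the 7 after LL34 shRNA, and those of Foxa2 and Foxp4 because their RNA moved apart from or along with it. RefSeq promoter sequences on build GRCm38.p6, 250 bases before to 50 after an annotated start, were matched for 5 of the 7 factors and gave 9 promoters. All 3 shown lie on the minus strand and are written 5′ to 3′ along the gene. Capitals mark every match, on either strand, to the forkhead motif TGTTTAC, the CCAAT box CCAAT or the GC box GGGCGG; no matches overlap in these 3. They span chr12:57546062-57546361 for Foxa1, chr2:148046920-148047219 for Foxa2, the outermost of its 3 starts, and chr17:47924583-47924882 for Foxp4.
Foxa1: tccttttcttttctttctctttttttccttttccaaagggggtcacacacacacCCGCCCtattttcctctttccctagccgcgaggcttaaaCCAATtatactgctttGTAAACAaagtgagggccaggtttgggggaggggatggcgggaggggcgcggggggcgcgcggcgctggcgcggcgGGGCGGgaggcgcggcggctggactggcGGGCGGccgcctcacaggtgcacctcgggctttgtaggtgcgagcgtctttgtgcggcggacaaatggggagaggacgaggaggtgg
Foxa2: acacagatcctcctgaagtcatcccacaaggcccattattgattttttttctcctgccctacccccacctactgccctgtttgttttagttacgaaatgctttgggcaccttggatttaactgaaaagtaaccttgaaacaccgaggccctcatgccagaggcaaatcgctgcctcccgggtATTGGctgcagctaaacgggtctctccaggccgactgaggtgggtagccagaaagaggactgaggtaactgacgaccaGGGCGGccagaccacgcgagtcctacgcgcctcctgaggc
Foxp4: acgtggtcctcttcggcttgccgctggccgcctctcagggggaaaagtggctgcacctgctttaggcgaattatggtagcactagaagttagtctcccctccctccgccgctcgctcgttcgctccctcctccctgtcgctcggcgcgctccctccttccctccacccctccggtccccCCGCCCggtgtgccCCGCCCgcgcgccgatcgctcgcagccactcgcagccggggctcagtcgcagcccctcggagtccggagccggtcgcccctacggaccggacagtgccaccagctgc
The Foxa1 promoter held 1 forkhead motif, read on the other strand 141 bases before the start, 1 CCAAT box and 3 GC boxes. It was the only 1 of the 9 promoters with TGTTTAC, a motif found in 3.65% of the 32851 promoters of this length. CCAAT was found in 37.4% of them and GGGCGG in 35.7%. The Foxa2 promoter shown held 1 CCAAT box and 1 GC box, and that of Foxp4 held 2 GC boxes and no CCAAT box. The GC content was 62.3% for Foxa1, 54.3% for Foxa2 and 70.3% for Foxp4, beside a median of 52.7% over all promoters. A match is a run of letters and not a measured binding site. Foxa1 and Nkx2-1, the lung homeobox gene, both lie on chromosome 12, with starts 1009 kb apart.

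Foxa2, the partner of Foxa1 in lung morphogenesis, was higher with NANCI shRNA and lower with LL34 shRNA. With NANCI shRNA the signals were 9.99, 9.83 and 9.86, against 9.68, 9.57 and 9.56 in its scrambled group (means 9.89 ± 0.0828 and 9.60 ± 0.0658, SD, n = 3 each). The groups did not overlap, and Foxa2 rose by 0.29 (SE 0.0686, limma adjusted p = 0.0102) to 122% of scrambled. With LL34 shRNA the signals were 9.33, 9.44 and 9.41, against 9.70, 9.76 and 9.88 in its scrambled group (means 9.39 ± 0.0614 and 9.78 ± 0.0892, SD, n = 3 each). These groups did not overlap either, and the change was -0.39 (SE 0.0686, limma adjusted p = 0.0027), a level at 76.5% of scrambled. From low to high the order was LL34 shRNA, NANCI scrambled, LL34 scrambled and NANCI shRNA, and the arrays of LL34 scrambled and NANCI shRNA overlapped. That order also carries the different scales of the sets. Against all 6 scrambled arrays of both sets, the change with NANCI shRNA was 0.20 and no longer called (limma adjusted p = 0.134). This control joins sets of different scales. It moves the median of all probe sets by 0.121 with NANCI shRNA and -0.109 with LL34 shRNA. Values against all 6 scrambled arrays carry that offset, here and below.

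Foxa3, the member of the FoxA family known in the lung from goblet cells, passed the test in neither comparison. Its signals were 6.72, 7.14 and 6.95 with NANCI shRNA, against 6.62, 6.96 and 6.71 in the scrambled group. With LL34 shRNA they were 6.95, 7.01 and 6.86, against 6.82, 6.90 and 7.17. The groups overlapped in both sets. The changes were 0.17 (95% interval -0.11 to 0.45, limma adjusted p = 0.456) and -0.03 (-0.31 to 0.25, limma adjusted p = 0.931), the second of which turned positive without LL34_shRNA replicate 3 or LL34_control replicate 3 (0.0132 to 0.0771). Group means lay at the 48.2 to 56.9 percentile of all probe sets. No detection call was used here, so a signal at this level is not evidence that the RNA is present.

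Foxp1, a repressor that restrains secretory differentiation together with Foxp4, was lower to a like extent after both shRNAs. With NANCI shRNA its signals were 10.65, 10.72 and 10.78, against 11.28, 11.22 and 11.16 in the scrambled group (means 10.72 ± 0.0632 and 11.22 ± 0.0587, SD, n = 3 each). With LL34 shRNA they were 10.62, 10.75 and 10.56, against 11.10, 11.15 and 11.05 (means 10.64 ± 0.0954 and 11.10 ± 0.0470, SD, n = 3 each). In both sets the highest shRNA array lay below the lowest scrambled array. The fall was -0.50 with NANCI shRNA (SE 0.0647, limma adjusted p = 0.000206), leaving 70.8% of scrambled. It was -0.46 with LL34 shRNA (SE 0.0647, limma adjusted p = 0.000645), leaving 72.7%. The shRNA groups of the sets overlapped each other, below both scrambled groups, although the sets lie on different scales.

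Foxp2, a repressor of the distal lung epithelium, separated the shRNAs most. With NANCI shRNA its signals were 7.80, 8.01 and 7.90, against 9.38, 9.17 and 9.16 in the scrambled group (means 7.91 ± 0.104 and 9.24 ± 0.127, SD, n = 3 each). The groups were 1.15 apart at their nearest arrays. The change was -1.33 (SE 0.102, limma adjusted p = 5.75e-06), a level at 39.7% of scrambled. With LL34 shRNA the signals were 9.25, 9.44 and 9.21, against 8.93, 9.16 and 8.84 in its scrambled group (means 9.30 ± 0.124 and 8.98 ± 0.164, SD, n = 3 each). All 3 shRNA arrays were above the scrambled ones, but only 0.0525 lay between the nearest arrays, and the difference of 0.32 (95% interval 0.10 to 0.55) missed the threshold (limma adjusted p = 0.054). It was called at 0.42 without LL34_control replicate 2 (limma adjusted p = 0.0229), and when probe sets below the median level were left out of the test (0.32, limma adjusted p = 0.03). From low to high the groups were NANCI shRNA, LL34 scrambled, NANCI scrambled and LL34 shRNA, and the arrays of NANCI scrambled and LL34 shRNA overlapped. Here too the order carries the different scales of the sets.

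Foxp4, which pairs with Foxp1 and Foxp2, was lower after both shRNAs, by less and less firmly with NANCI shRNA. With NANCI shRNA its signals were 9.35, 9.38 and 9.24, against 9.56, 9.55 and 9.65 in the scrambled group (means 9.32 ± 0.0769 and 9.59 ± 0.0549, SD, n = 3 each). The groups did not overlap, and the change of -0.26 (SE 0.0736, limma adjusted p = 0.0262) left 83.3% of scrambled. That call was lost when any 1 of 4 arrays was left out, NANCI_shRNA replicate 1 or 3 or NANCI_control replicate 1 or 3 (changes -0.28 to -0.22, limma adjusted p = 0.0538 to 0.0978), and against all 6 scrambled arrays (-0.04, limma adjusted p = 0.84). The last value carries the offset between the scales of the sets. With LL34 shRNA the signals were 8.59, 8.68 and 8.57, against 9.24, 9.19 and 9.00 (means 8.61 ± 0.0600 and 9.14 ± 0.127, SD, n = 3 each). These groups were clearly apart, and the change was -0.53 (SE 0.0736, limma adjusted p = 0.000586), leaving 69.3% of scrambled. Both groups of the LL34 set had lower mean Foxp4 signals than both groups of the NANCI set, although levels of the sets carry their different scales.

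Foxj1 did not pass the test in either comparison. Its signals were 6.43, 6.52 and 6.86 with NANCI shRNA, against 6.51, 6.59 and 6.67 in the scrambled group. With LL34 shRNA they were 6.07, 5.98 and 6.04, against 6.01, 6.04 and 6.11. The groups overlapped in both sets, and all 4 means lay below the median of all probe sets, at the 39.7 to 44.8 percentile. The changes were 0.01 (95% interval -0.20 to 0.23, limma adjusted p = 0.961) and -0.02 (-0.24 to 0.19, limma adjusted p = 0.916). The sign of both changes turned when single arrays were left out, NANCI_shRNA replicate 3 or NANCI_control replicate 1 (-0.11 to -0.0249) and LL34_shRNA replicate 2 or LL34_control replicate 3 (0.00102 to 0.00503). Ciliated cell markers were low as well: 8 of 10 were below the median of all probe sets in both groups of the NANCI set and 9 of 10 in both groups of the LL34 set, and none of the 10 was called in either comparison. Over all named genes, not matched for signal, 26.8% were called with NANCI shRNA and 20% with LL34 shRNA.

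**Figure D2:**
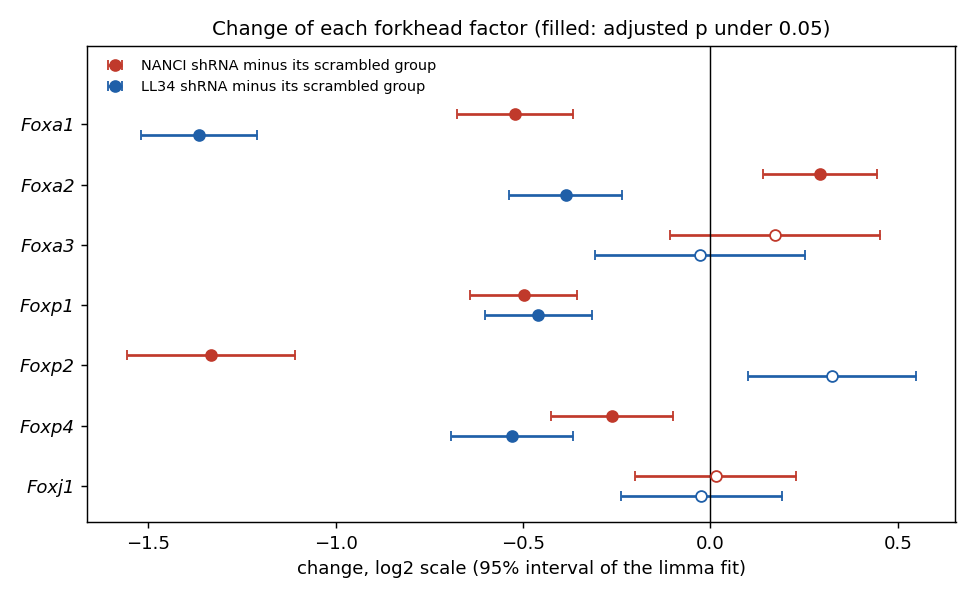
Change of each forkhead factor with NANCI shRNA and with LL34 shRNA, shRNA minus its own scrambled group on the log2 scale, with 95% intervals of the limma fit. Foxp2 lies at -1.33 and 0.32 and Foxa2 at 0.29 and -0.39, whereas Foxp1 lies at -0.50 and -0.46.

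The 2 changes of a factor were set against each other in the same fit, NANCI change minus LL34 change. The sets have no array in common. Of the 7 factors, 3 had a called difference, against 18.8% of all probe sets and 24.4% of named genes. With probe sets under the median signal left out, 8141 of 20673 had one. Foxa1 fell further with LL34 shRNA, and its difference was 0.84 (SE 0.0987, 95% interval 0.63 to 1.06, limma adjusted p = 0.000132). Foxa2 moved in opposite directions, with a difference of 0.68 (SE 0.0970, limma adjusted p = 0.000506). Foxp2 had the largest difference of the 7, -1.66 (SE 0.144, limma adjusted p = 1.8e-05). For Foxp1 the difference was -0.04 with an interval of -0.24 to 0.16 (limma adjusted p = 0.844), and it turned to 0.0119 without LL34_shRNA replicate 2. For Foxp4 it was 0.27 with an interval of 0.04 to 0.50 and missed the threshold (limma adjusted p = 0.111). It was called after quantile normalization of all 12 arrays (0.35, limma adjusted p = 0.0138) and without LL34_control replicate 3 (0.34, limma adjusted p = 0.0222).

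Alveolar type 1 markers, those of the thin cells through which gas is exchanged, were lower in part in both sets. With NANCI shRNA, 7 of 8 fell and the array means of the list were 10.12 to 10.23, against 10.90 to 10.93 in the scrambled group. With LL34 shRNA, 4 of 8 fell and the means were 10.37 to 10.48, against 10.73 to 10.87. None of the 8 lay below the median of all probe sets. Over all named genes, 13.2% rose and 13.6% fell with NANCI shRNA, and 9.77% and 10.3% with LL34 shRNA. Of 10 alveolar type 2 markers, 2 fell with NANCI shRNA, with 1 higher and 1 lower with LL34 shRNA. Of 8 epithelial markers, 1 rose and 2 fell in each set. No test linked these markers to the factors, and the part of their shifts in the forkhead changes was not tested.

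The other forkhead genes give the family around the 7. Of 37 listed, 36 were measured. With NANCI shRNA, 1 rose and 7 fell, and with LL34 shRNA 1 rose and 2 fell, beside 13.2% of named genes higher and 13.6% lower with NANCI shRNA and 9.77% and 10.3% with LL34 shRNA. The median changes of the 36 were -0.04 and -0.02. With NANCI shRNA, Foxn3 fell by 0.67 (limma adjusted p = 0.000167), Foxj2 by 0.57 (4.2e-05) and Foxo1, the insulin-responsive factor, by 0.32 (0.0028). Foxo1 did not keep its fall against all 6 scrambled arrays (0.0101). Foxd1 rose by 0.54 (limma adjusted p = 0.000189). With LL34 shRNA, Foxo6 fell by 0.71 (limma adjusted p = 2.71e-05) and Foxn2 rose by 0.38 (0.000846), a rise not called against all 6 scrambled arrays (0.20). Foxk1 fell by 0.24 (limma adjusted p = 0.0152), a call lost without LL34_shRNA replicate 1 or 2 (-0.22 each, limma adjusted p = 0.0552 to 0.0625).

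**Figure D3:**
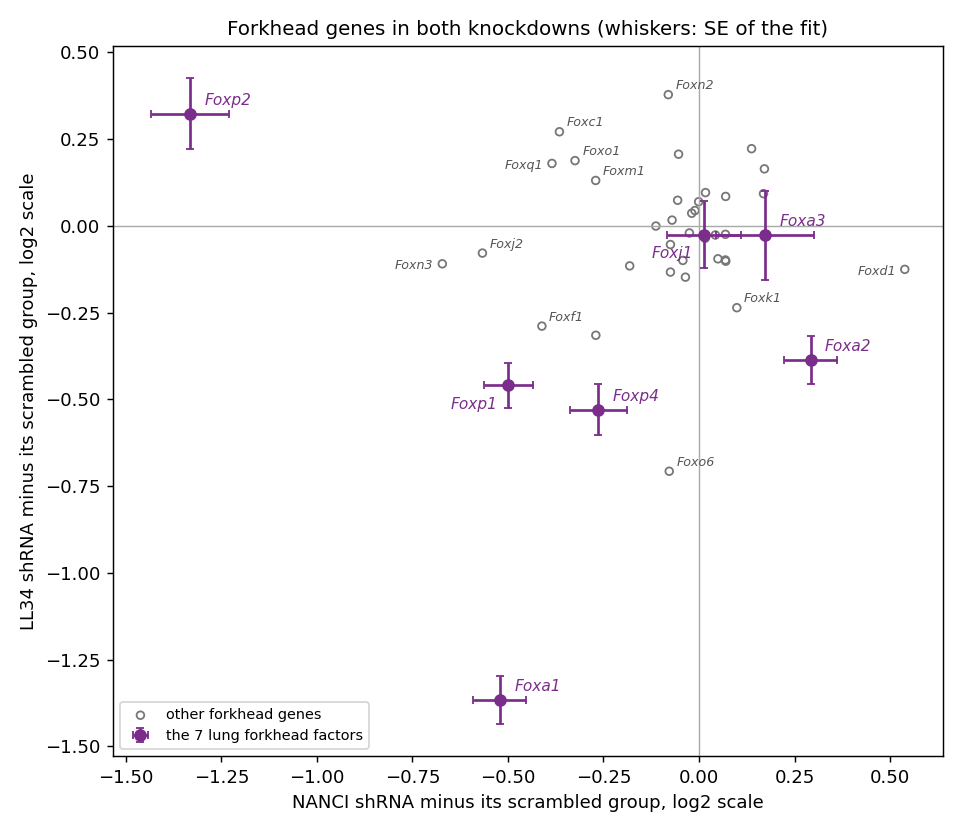
Change with NANCI shRNA (horizontal) and with LL34 shRNA (vertical) on the log2 scale for the 7 lung forkhead factors (filled, with SE) and 36 other forkhead genes (open, named where called). Foxa1 lies at -0.52 and -1.37, below every other gene plotted, and Foxp2 at -1.33 and 0.32, to the left of all others.

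Genes that FoxA factors are known to control in the lung were measured for all 20 entries. With NANCI shRNA 6 fell and none rose (median -0.17), and with LL34 shRNA 2 rose and 2 fell (median -0.06). That number of calls is near the 26.8% and 20% of all named genes called in these comparisons. Of the 20, 7 are also on the alveolar type 2 marker list and 5 on the airway secretory one. With NANCI shRNA, Cdh1, the epithelial cadherin, fell by 1.56 and Abca3, the lamellar body lipid transporter, by 1.24 (limma adjusted p = 6.92e-07 each). Nkx2-1 fell by 1.00 (limma adjusted p = 4.95e-06) and Shh, the hedgehog ligand of the lung epithelium, by 0.74 (8.73e-05), a call that Shh lost against all 6 scrambled arrays (-0.32). With LL34 shRNA, the surfactant gene Sftpb rose by 0.62 (limma adjusted p = 0.00504) and the factor Cebpa by 0.56 (0.00994), and neither was called against all 6 scrambled arrays (0.27 and 0.22). The Cebpa call was also lost when only the 6 arrays of the LL34 set were fitted (limma adjusted p = 0.0527). Sftpc changed by -0.62 (limma adjusted p = 0.0392) and Nkx2-1 by -0.27 (0.0327) with LL34 shRNA. These were the least firm calls: that of Sftpc was lost without LL34_shRNA replicate 1 or 3 or LL34_control replicate 1 or 2 (-0.64 to -0.48, limma adjusted p = 0.0912 to 0.155), and that of Nkx2-1 without any 1 of the 3 LL34_shRNA arrays or LL34_control replicate 1 or 2 (-0.27 to -0.22, limma adjusted p = 0.0862 to 0.119).

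FoxA-linked genes of liver and other endoderm served as a second list, with 18 of 20 measured. By group, 12 to 14 of the 18 lay below the median of all probe sets, a level that does not show the RNA to be present. Onecut2, a liver and pancreas homeobox factor, was the only call in either set. Of all named genes, 26.8% were called with NANCI shRNA and 20% with LL34 shRNA, shares not matched for signal. It changed by -0.29 with NANCI shRNA (limma adjusted p = 0.0187) and by 0.28 with LL34 shRNA (0.0268). Neither call was stable. The NANCI call ended on leaving out NANCI_control replicate 2 or 3 or NANCI_shRNA replicate 1 (-0.26 to -0.20, limma adjusted p = 0.0598 to 0.07). The LL34 call was lost without LL34_shRNA replicate 2 or 3 or LL34_control replicate 2 or 3 (0.25 to 0.28, limma adjusted p = 0.0623 to 0.0933). Against all 6 scrambled arrays both changes turned round, to 0.0423 and -0.0501.

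Lung genes linked to FoxP factors fell in part in both sets, with no member higher. All 13 were measured, and 8 of them are also on the FoxA lung list. With NANCI shRNA 6 fell (median -0.40) and with LL34 shRNA 5 fell (median -0.13). Over all named genes, 13.6% fell with NANCI shRNA and 10.3% with LL34 shRNA. Pdpn, the alveolar type 1 membrane protein podoplanin, fell by 0.87 with NANCI shRNA (limma adjusted p = 7.77e-06) and by 0.67 with LL34 shRNA (8.86e-05). Aqp5, an alveolar type 1 water channel, fell by 0.60 (limma adjusted p = 0.000214) and by 0.61 (0.000371), and the LIM protein gene Lmo4 by 0.55 (0.000162) and by 0.36 (0.00434). Nkx2-1 was the fourth named gene in each set, with the values above. Of the 13, 3 are on the alveolar type 1 marker list, Pdpn and Aqp5 among them.

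Partners through which FoxP proteins repress, chiefly parts of the NuRD deacetylase complex, were measured for 18 of 19 entries. With NANCI shRNA 7 rose and 2 fell (median 0.14), and with LL34 shRNA 2 rose and 2 fell (median 0.02). Of all named genes, 26.8% and 20% were called in these comparisons. Only 1 of the 18 lay below the median of all probe sets in each group. Of the 20673 probe sets at or above that median, tested alone, 8413 and 7209 were called. With NANCI shRNA the deacetylase Hdac2 fell by 1.05 (limma adjusted p = 5.38e-06) and the NuRD subunit Mbd3 by 0.63 (0.000525), while the deacetylase Hdac3 rose by 0.33 (0.000884) and the transcription factor Nfatc2 by 0.33 (0.00202). Hdac3 was not called against all 6 scrambled arrays (0.21). With LL34 shRNA the remodeller Chd3 fell by 0.39 (limma adjusted p = 0.000859) and Mta3 rose by 0.43 (0.00464), but against all 6 scrambled arrays Chd3 was not called (-0.15) and Mta3 turned to -0.12. The calls of Gatad2b (0.18, limma adjusted p = 0.0362) and Mta2 (-0.19, 0.0376) with LL34 shRNA were each lost without any 1 of the 6 LL34 arrays, at 0.15 to 0.19 (limma adjusted p = 0.0528 to 0.119) for Gatad2b and -0.20 to -0.17 (0.0512 to 0.119) for Mta2. Gatad2b also turned to -0.0393 against all 6 scrambled arrays.

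Motile cilia genes, the program that Foxj1 switches on, showed few calls. Of 37 measured, 1 rose and 1 fell with NANCI shRNA (median -0.0014) and 1 rose and 2 fell with LL34 shRNA (median -0.07). Those counts stand beside 26.8% and 20% of all named genes called. By group, 24 to 30 of the 37 lay below the median of all probe sets. All 10 ciliated cell markers are on this list. The radial spoke gene Rsph4a rose by 0.22 with NANCI shRNA (limma adjusted p = 0.0108), at signals at or below the 21.6 percentile of all probe sets in every group, a level that does not show the RNA to be present. Dnah11, a dynein heavy chain, fell by 0.34 with LL34 shRNA (limma adjusted p = 0.00646) and by 0.24 with NANCI shRNA (0.0308). Its group means lay at the 42.4 to 49.9 percentile, which does not show the RNA to be present either. Dnah11 lost its NANCI call on leaving out replicate 1 or 2 of NANCI_control or replicate 1 or 2 of NANCI_shRNA (-0.23 to -0.21, limma adjusted p = 0.0802 to 0.114). With LL34 shRNA, Rfx2, a factor that works with Foxj1, changed by -0.20 (limma adjusted p = 0.037) and Ccno by 0.29 (0.0372). Group means of Ccno lay at the 39.1 to 47.8 percentile, with the same limit. Rfx2 lost its call without any 1 of the 3 LL34_shRNA arrays or LL34_control replicate 2 or 3 (-0.23 to -0.16, limma adjusted p = 0.0541 to 0.138). Ccno lost its call without any 1 of the 3 LL34_shRNA arrays or LL34_control replicate 1 or 2 (0.21 to 0.31, limma adjusted p = 0.06 to 0.115), and turned to -0.0906 against all 6 scrambled arrays.

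Other lung transcription factors, of which 25 of 26 were measured, moved both ways: 6 rose and 6 fell with NANCI shRNA (median -0.01), and 4 rose and 7 fell with LL34 shRNA (median -0.10). The shares called over all named genes were 26.8% and 20%. Nfib, a factor of distal lung maturation, fell by 1.02 with NANCI shRNA (limma adjusted p = 1.72e-06) and by 0.44 with LL34 shRNA (0.000825). Id2, a marker of distal tip progenitors, rose by 1.24 with NANCI shRNA (limma adjusted p = 7.29e-06) and fell by 0.71 with LL34 shRNA (0.000598), but was called in neither comparison against all 6 scrambled arrays (0.61 and -0.0772). With NANCI shRNA the FGF-responsive factor Etv4 rose by 1.16 (limma adjusted p = 9.68e-07). With LL34 shRNA Sox4 fell by 1.32 (limma adjusted p = 9.14e-07) and Gata6, an endoderm factor that acts with Nkx2-1, by 0.54 (0.000148).

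**Figure D4:**
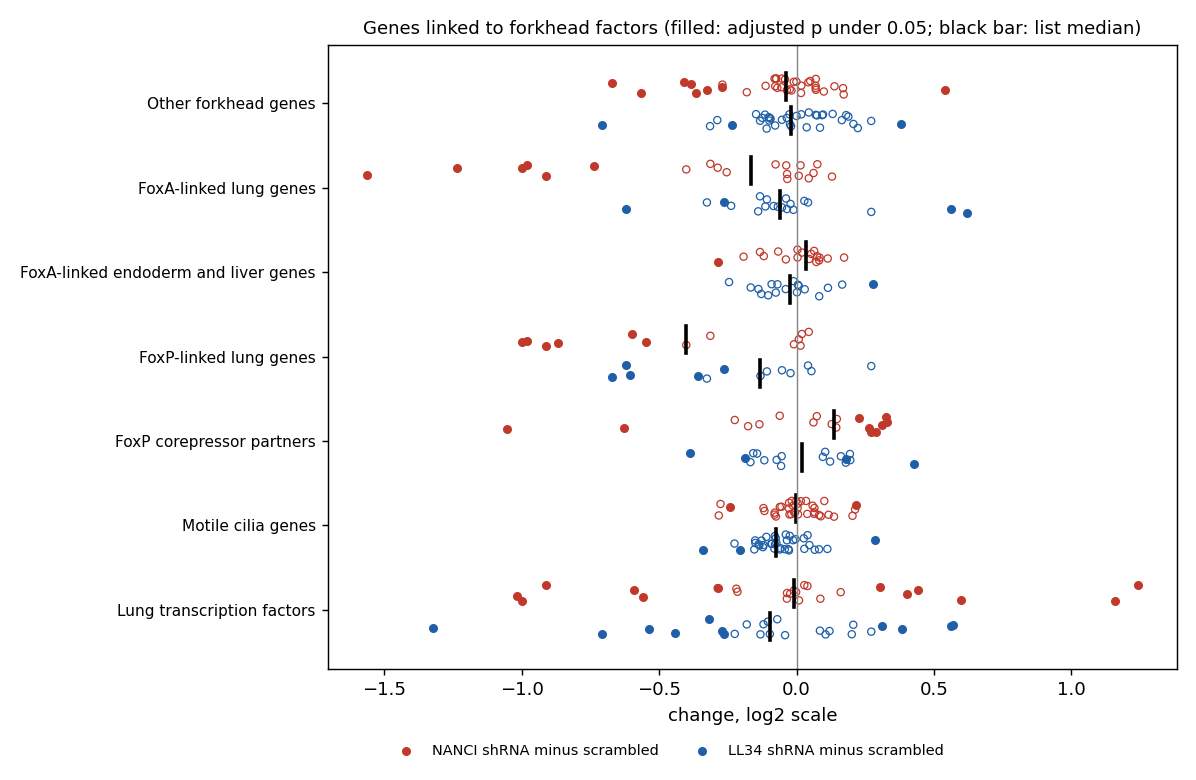
Change of each gene on the 7 lists linked to forkhead factors, on the log2 scale, with NANCI shRNA and with LL34 shRNA, filled where called, with a bar at each list's median. The FoxP-linked lung genes have medians of -0.40 and -0.13, and the motile cilia genes lie close to 0 with medians of -0.0014 and -0.07.

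For each called factor the 3 genes with the most similar profile were found among 11769 named genes, by Pearson correlation over the 12 arrays after each set's mean was taken off. These values describe arrays that share their groups, so they mostly restate the group changes. Foxa1 was nearest to Sesn3 (0.995), Slc39a10 (0.992) and Trappc2 (0.991). Sesn3, which encodes a sestrin, changed by -0.58 with NANCI shRNA and by -1.39 with LL34 shRNA. Foxa2 was nearest to Card19 (0.977), Tinagl1 (0.977) and Aloxe3 (0.969), all 3 higher with NANCI shRNA and lower with LL34 shRNA. Foxp1 was nearest to Smarcc2, a chromatin remodelling subunit (0.993), Pik3c2g (0.992) and Lrp2 (0.991). Foxp2 was nearest to Mical1 (0.991), Sri (0.990) and Arfgap1 (0.987), and Foxp4 to Pdzrn3 (0.979), Pls1 (0.979) and Mxra7 (0.974).

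The genes beside the 7 factors were read after their values could be seen, as the 2 nearest measured genes on each side. Of these 28 neighbours, 5 were called with NANCI shRNA and 3 with LL34 shRNA, beside 26.8% and 20% of all named genes. Those shares are not matched for signal. Many neighbours had low mean signals, in a range of 4.72 to 11.55, so the counts do not show fewer changes beside the factors. None of the 4 beside Foxa1 (Slc25a21, Gm20016, Sstr1 and Clec14a) was called in either comparison, with changes of -0.11 to 0.14, and none beside Foxa2 or Foxp4 was called. Mean signals of the 4 beside Foxa1 were 5.12 to 6.32, under the lowest array median of 6.54. That level does not show the RNA to be present. Mean signals were 6.39 to 6.86 beside Foxa2 and 4.72 to 7.05 beside Foxp4. Mdfic, next to Foxp2, fell by 0.78 with NANCI shRNA (limma adjusted p = 2.96e-06) and changed by 0.10 with LL34 shRNA (0.275). Mitf, beside Foxp1, changed by -0.54 with NANCI shRNA (limma adjusted p = 0.000385) and by 0.28 with LL34 shRNA (0.0294). Rnf157, beside the uncalled Foxj1, changed by -1.20 with NANCI shRNA (limma adjusted p = 2.08e-06) and by 0.48 with LL34 shRNA (0.00181). The other calls were Sympk beside Foxa3 (-0.38) and Exoc7 beside Foxj1 (-0.25) with NANCI shRNA, and Ubald2 beside Foxj1 (0.47) with LL34 shRNA.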

How the data were processed

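RNA of 12 samples of MLE12 cells was measured on Affymetrix arrays, from 100 ng of total RNA primed with poly(T), per the labels' protocols. Per the submitters' processing notes, the tools included oligo, RMA and limma. What the authors deposited is 1 log2 signal for each probe set and array, a scale read from the values. The sources used here give neither tool versions nor the annotation. Both sets of 6 arrays appear to have been normalized apart: array medians differ, and up to 1681 probe sets had exactly equal values on a pair of arrays of the LL34 set, against 27 in the NANCI set and 0 between sets. Such ties can make errors too small. Among the forkhead factors only Foxj1 had a tied pair of values.

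Of 41345 probe sets, 23521 had 1 gene symbol, 1814 several and 16010 none in the platform annotation, and only the first were named. For the 1082 genes with more than 1, the brightest stood for the gene.

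All 12 arrays were fitted with limma 3.58.1 in R 4.3.3, as 4 group means with 8 residual and 2.84 prior degrees of freedom, on the deposited log2 values with no filter. Each shRNA group was set against the scrambled group of its own title, and the changes against each other. P-values were adjusted by Benjamini-Hochberg over all probe sets, threshold 0.05. The fit was tested on simulated data for the NANCI comparison. It recovered 68 of 100 log2 changes of 0.5 and 88 of 100 of 1, with 8 false calls. Far fewer probe sets changed there than were called on the real arrays, so recovery may differ. No batch is given in the sources used here, and the number of arrays limits precision. Python 3.11.15 with pandas 2.3.3 and matplotlib 3.10.9 made the summaries and plots.

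The members and lists were chosen with earlier results of these data known. The text names the 7 members, Nkx2-1, Sfta3-ps, up to 4 called genes with the smallest p per list and comparison, and the 3 nearest profiles among genes at or above the median level. Neighbours were added later. Alternatives were quantile normalization, centring, the 6 arrays of a set, a replicate block, all 6 scrambled arrays, a filter on level, an intensity trend and leaving out each array.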

Additional observations from a re-analysis of the deposited data

Results flagged for a closer look

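Changes were compared as NANCI change minus LL34 change in the limma fit, called at adjusted p below 0.05. Of 73 genes examined among those named in the report, 49 had changes that differed between the knockdowns. Most of these genes were named because they were called in a comparison or follow a called factor, so their share says nothing beyond that choice. Among the forkhead factors these were Foxa1 with a difference of 0.84, Foxa2 with 0.68 and Foxp2 with -1.66 on the log2 scale. The check genes Sfta3-ps and Nkx2-1 differed by -2.24 and -0.73. The remaining genes came from the lists, the markers, the similar profiles and the neighbours. The positive differences were those of Id2 (1.95), Sox4 (1.77), Tinagl1 (1.38), Krt19 (1.31), Etv4 (1.28), Aloxe3 (1.09), Sesn3 (0.81), Card19 (0.74), Slc39a10 (0.73), Foxd1 (0.66), Chd3 (0.66), Trappc2 (0.65), Foxo6 (0.63), Pls1 (0.52), Nfatc2 (0.50), Mta2 (0.45), Hdac3 (0.40), Pdzrn3 (0.38), Rsph4a (0.35), Mxra7 (0.34), Foxk1 (0.33). The negative ones were those of Rnf157 (-1.68), Mical1 (-1.33), Cdh1 (-1.33), Hdac2 (-1.15), Abca3 (-1.10), Sri (-0.97), Mdfic (-0.89), Sftpb (-0.88), Cebpa (-0.85), Mbd3 (-0.82), Mitf (-0.81), Arfgap1 (-0.75), Shh (-0.70), Mta3 (-0.65), Nfib (-0.57), Onecut2 (-0.57), Foxn3 (-0.56), Foxo1 (-0.51), Sympk (-0.50), Foxj2 (-0.49), Foxn2 (-0.46), Ubald2 (-0.43), Gatad2b (-0.31). The marker Dcn, named above for its level, was outside the 73 and had a difference of -0.98 (limma adjusted p = 6.85e-05). The scrambled groups of the sets also lie on different scales, and the part of the separate sets in these differences was not tested.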

How the results depend on the processing

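Of 298 alternative values for the 7 forkhead factors, 277 kept their direction and their side of the threshold. Against all 6 scrambled arrays as 1 control, which moves the median of all probe sets by 0.121 with NANCI shRNA and -0.109 with LL34 shRNA, 3 members were called with NANCI shRNA, and 4309 probe sets with LL34 shRNA in place of 6766. In that setting Foxa2 (0.20) and Foxp4 (-0.0424) lost their NANCI calls, Foxa3 turned to 0.0728 with LL34 shRNA, and 6 changes of 5 list genes turned round: Foxo1 to 0.0101 and Onecut2 to 0.0423 with NANCI shRNA, and Ccno to -0.0906, Gatad2b to -0.0393, Mta3 to -0.12 and Onecut2 to -0.0501 with LL34 shRNA. Leaving out probe sets below the median level called Foxp2 with LL34 shRNA (0.32). Quantile normalization of all 12 arrays called the Foxp4 difference (0.35). The cause of these shifts was not tested. With LL34 shRNA 4011 probe sets were higher and 2755 lower, against 3307 and 3463 after quantile normalization and 3062 and 3035 after centring on array medians.

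Leaving out 1 array at a time gave changes of -0.29 to -0.22 for Foxp4 and -0.11 to 0.0994 for Foxj1 with NANCI shRNA. With LL34 shRNA it gave 0.25 to 0.42 for Foxp2, -0.0996 to 0.0771 for Foxa3 and -0.0468 to 0.00503 for Foxj1. Differences between the knockdowns ran from -0.082 to 0.0119 for Foxp1, 0.22 to 0.34 for Foxp4 and -0.0897 to 0.124 for Foxj1. The labels give all groups replicate numbers 1 to 3, but same-numbered arrays of a set did not deviate together (correlations of -0.125 to 0.0451), so the numbers were not taken as pairs. With the replicate block 6906 probe sets were called with NANCI shRNA in place of 8228, 5257 with LL34 shRNA in place of 6766 and 6320 for the difference in place of 7780. Foxp4 with NANCI shRNA (-0.26) was not called with the block (adjusted p = 0.0656), and the block changed no other member's call. Of the list genes, Rsph4a (0.22, adjusted p = 0.0611) and Dnah11 with NANCI shRNA and Nkx2-1, Ccno, Foxk1, Gatad2b, Mta2 and Rfx2 with LL34 shRNA were not called with it. Fitting only the 6 arrays of a set called 7504 probe sets with NANCI shRNA and 4833 with LL34 shRNA, and changed no member's call. It ended the calls of Dnah11 and Onecut2 with NANCI shRNA. With LL34 shRNA it ended those of Nkx2-1, Sftpc, Cebpa, Foxk1, Ccno, Rfx2, Mta2 and Gatad2b. Each factor has 1 probe set, so probe sets of a factor could not be compared. With 3 arrays a group, small changes of the uncalled factors could be missed.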
